A study of Mus musculus with 15 samples.

Results

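Human islet amyloid polypeptide (IAPP) was compared in islets that already carried a human calpastatin transgene: 3 libraries from mice with both transgenes (hIAPP-hCAST) were set against 3 libraries from mice with the calpastatin transgene alone (hCAST). The 6 libraries were taken by their labels from the 15 of the series, which also holds 3 libraries each of hIAPP, rIAPP and WT mice. All were bulk pancreatic islets of FVB/NJ mice aged 9 to 10 weeks. In hIAPP-hCAST mice human IAPP was driven by the insulin II promoter and human CAST by an insulin promoter, and in hCAST mice human CAST was driven by the insulin II promoter, so both groups carried human CAST in insulin-producing cells and differed in human IAPP. In the hIAPP mice used beside them human IAPP stood alone under the insulin II promoter, and WT mice carried neither transgene. The rIAPP mice, whose means are given for a few genes, carried a rodent IAPP transgene.

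IAPP is a peptide hormone that beta cells store and release with insulin. The human form can assemble into amyloid and into toxic oligomers, whereas the mouse form does not aggregate. Islet macrophages take up material that beta cells release, and in other tissues macrophages that meet amyloid or lipid switch on a program of Trem2, Apoe and lysosomal genes. Calpains are calcium-activated proteases of the cytosol, and calpastatin, the product of CAST, is their inhibitor.

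The libraries held 36295060, 37916324 and 40191501 counts in hIAPP-hCAST 1, 2 and 3, against 34904705, 37829688 and 37706974 in hCAST 1, 2 and 3, where the numbers follow accession order. None was rich in ribosomal reads: Rn45s, Lars2 and Mir6236 together held 0.322% to 0.47% of the counts in hIAPP-hCAST and 0.286% to 0.491% in hCAST. The insulin genes held 8.92% to 12% in hIAPP-hCAST and 12.2% to 14.1% in hCAST of the counts outside those 3 genes. One library stood apart: hIAPP-hCAST 3 had an acinar share of 1.33%, where hIAPP-hCAST 1 and 2 had 8.49% and 16.6% and hCAST 1, 2 and 3 had 5.5%, 5.98% and 11.4%. Its summed level of 37 matrix genes was also the lowest of the 6, as given with those genes. The correlation of log CPM between libraries, taken across genes that are not replicates of each other, was 0.981 to 0.993 within hIAPP-hCAST, 0.993 to 0.996 within hCAST and 0.984 to 0.993 between them. The labels do not say that libraries of a group came from separate animals, so the spread between libraries that p-values measure may be technical. In the main fit that spread was pooled over all 15 libraries of the series, and not taken from the 6 compared libraries alone. The numbers in the sample titles lie in separate ranges in hIAPP-hCAST and hCAST, and whatever those ranges stand for cannot be told apart from the human IAPP transgene.

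Of 15460 tested genes, 80 were higher in hIAPP-hCAST (0.517%) and 36 were lower (0.233%), together 0.75% of the genes tested (edgeR quasi-likelihood test over all 15 libraries, Benjamini-Hochberg adjusted p below 0.05). The median log2 fold change of all tested genes was 0.01. Each of the 116 called genes had no overlap between the 3 hIAPP-hCAST and the 3 hCAST libraries. Of all tested genes 6.64% were higher and 6.61% lower without such overlap. Of the called genes 59 rose by more than 1 on the log2 scale and 15 fell by more than 1. The count differed with the libraries that entered the fit. It was 9 when only the 6 compared libraries were fitted, with 1134 genes at an unadjusted p below 0.05 there, and 53 without WT 2, WT 3 and rIAPP 2, which are rich in ribosomal reads. It was 36 without hCAST 2, 48 without hCAST 1 and 356 without hIAPP-hCAST 3, and 31 of the 116 genes kept the call in each of the 6 fits that left out 1 compared library. The 9 genes of the 6-library fit were Sema5a, Snhg18, Osbpl1a, Zfp551, Cd81, 6330403K07Rik, Cd74, H2-Aa and Trpm5, which is not among the 116.

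The mouse genes that match the transgenes did not pass the test. Iapp had 22675, 23278 and 25025 CPM in hIAPP-hCAST and 23205, 23621 and 24221 CPM in hCAST (log2 fold change -0.0014 ± 0.173 SE, edgeR adjusted p = 1), and the groups overlapped. Cast had 21.5, 21 and 22.2 CPM in hIAPP-hCAST and 21.4, 21.6 and 20.4 CPM in hCAST (log2 fold change 0.03 ± 0.0692, adjusted p = 0.971), also with overlap. CPM here are counts relative to the TMM-scaled library size. Reads of the human transgenes were not analysed here, so these mouse counts do not check the labels.

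Among called genes with a mean of at least 1 CPM over the 6 libraries, the largest rises were those of Sema5a, Snhg18 and Osbpl1a, which lie at a pair of loci. Sema5a, which encodes a transmembrane semaphorin of axon guidance, had 570.1, 526 and 613 CPM in hIAPP-hCAST and 11.8, 10 and 12.5 CPM in hCAST, and each hIAPP-hCAST library was far above each hCAST library (log2 fold change 5.63 ± 0.136 SE, edgeR adjusted p = 5.46e-14). Per length that was a mean of 77.9 FPKM in hIAPP-hCAST and 1.51 FPKM in hCAST. Snhg18, a long non-coding RNA that starts 150 bases away and runs in the opposite direction, had 104, 87 and 112 CPM in hIAPP-hCAST and 6.78, 6 and 6.15 CPM in hCAST (log2 fold change 4.0 ± 0.111, adjusted p = 2.61e-13). Its groups were as clearly apart. On GRCm38 Sema5a spans chr15:32244813-32696341 on the plus strand and Snhg18 spans chr15:32240568-32244662. The RefSeq (GRCm38.p6) window around the start of Sema5a, chr15:32244563-32244862, plus strand, is shown because it holds both starts, and capitals mark the 150 bases between the genes:
Sema5a: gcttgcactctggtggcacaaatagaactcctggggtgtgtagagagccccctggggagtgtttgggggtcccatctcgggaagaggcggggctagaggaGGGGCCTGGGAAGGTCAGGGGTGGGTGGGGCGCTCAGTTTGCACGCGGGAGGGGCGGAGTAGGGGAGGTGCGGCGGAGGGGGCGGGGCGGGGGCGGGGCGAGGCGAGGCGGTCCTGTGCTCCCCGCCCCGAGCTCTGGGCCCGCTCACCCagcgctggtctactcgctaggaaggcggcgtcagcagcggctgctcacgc
The GC box letters GGGCGG, searched on both strands, matched 5 times in the capitals, where 35.7% of 32851 RefSeq windows of this kind hold at least 1 match. A match is a description of the letters and not a bound site.

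Snord123, a small nucleolar RNA annotated inside Snhg18 at chr15:32241845-32241932, had 0.663, 1.05 and 1.15 CPM in hIAPP-hCAST and 0, 0.11 and 0.019 CPM in hCAST, from 163 counts in hIAPP-hCAST and 7 in hCAST over 3 libraries each (ratio 21.7, 95% counting interval 10.3 to 54.8). The strand setting of the counting was not given in the sources used here, so reads of Snord123 and Snhg18 cannot be told apart. Osbpl1a, which encodes an oxysterol-binding protein of late endosomes, lies on chromosome 18 (12753898 to 12941871) and had 31.4, 33.4 and 24.9 CPM in hIAPP-hCAST and 4.32, 3.92 and 4.19 CPM in hCAST (log2 fold change 2.85 ± 0.12 SE, edgeR adjusted p = 1.63e-10). Beside the log2 fold changes of 5.63, 4.0 and 2.85 for Sema5a, Snhg18 and Osbpl1a, those without the calpastatin transgene, in hIAPP minus WT, were 5.44 ± 0.145, 4.07 ± 0.129 and 2.96 ± 0.146. The difference between backgrounds was 0.19 ± 0.173 SE for Sema5a, -0.07 ± 0.162 for Snhg18 and -0.11 ± 0.186 for Osbpl1a (edgeR adjusted p = 0.779, 0.932 and 0.904). In the rIAPP libraries the mean CPM of Sema5a, Snhg18 and Osbpl1a were 4.98, 9.17 and 26.9, against 13.4, 5.94 and 2.99 in WT. Thus Osbpl1a was also high in rIAPP, and rIAPP against WT was not tested here.

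Neighbours of Sema5a were also called. Within 2 Mb of it 7 of 16 tested genes passed (43.8%), Sema5a, Snhg18 and Snord123 higher and 4 neighbours lower. Of all tested genes 0.75% were called, and 8 of 609 on chromosome 15 (1.31%). The 7 include Sema5a itself, around which the window was placed, and Snord123, whose reads cannot be told apart from those of Snhg18. The 43.8% is therefore not a share of neighbours alone. Cmbl, a carboxymethylenebutenolidase homologue, had 2.84, 3.64 and 4.56 CPM in hIAPP-hCAST and 8.33, 7.54 and 6.76 CPM in hCAST (log2 fold change -1.03 ± 0.165 SE, edgeR adjusted p = 0.00556). Cpq, a carboxypeptidase, had 65.2, 62 and 61.7 CPM in hIAPP-hCAST and 91.3, 95.6 and 85.1 CPM in hCAST (-0.53 ± 0.0607, adjusted p = 0.000323), and Sdc2, the heparan sulfate proteoglycan syndecan 2, had 33.3, 31.9 and 27.1 CPM in hIAPP-hCAST and 44.1, 42 and 42.5 CPM in hCAST (-0.48 ± 0.0779, adjusted p = 0.00598). Ankrd33b, named after its values were seen, fell by 0.44 on the log2 scale (adjusted p = 0.0373). Each of these 4 was lower in all 3 hIAPP-hCAST libraries. Cct5, a subunit of the cytosolic chaperonin, did not pass at 0.38 ± 0.0883 (adjusted p = 0.0548), nor did Fam173b at -0.07 ± 0.162 (adjusted p = 0.97). Around Osbpl1a 1 of 18 tested genes was called (5.56%), namely Osbpl1a. Its neighbours Ttc39c, Cabyr, which overlaps it, Impact and Zfp521 had log2 fold changes of 0.26, 0.5, -0.24 and 0.44 and did not pass (adjusted p 0.436 to 0.874).

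**Figure D1:**
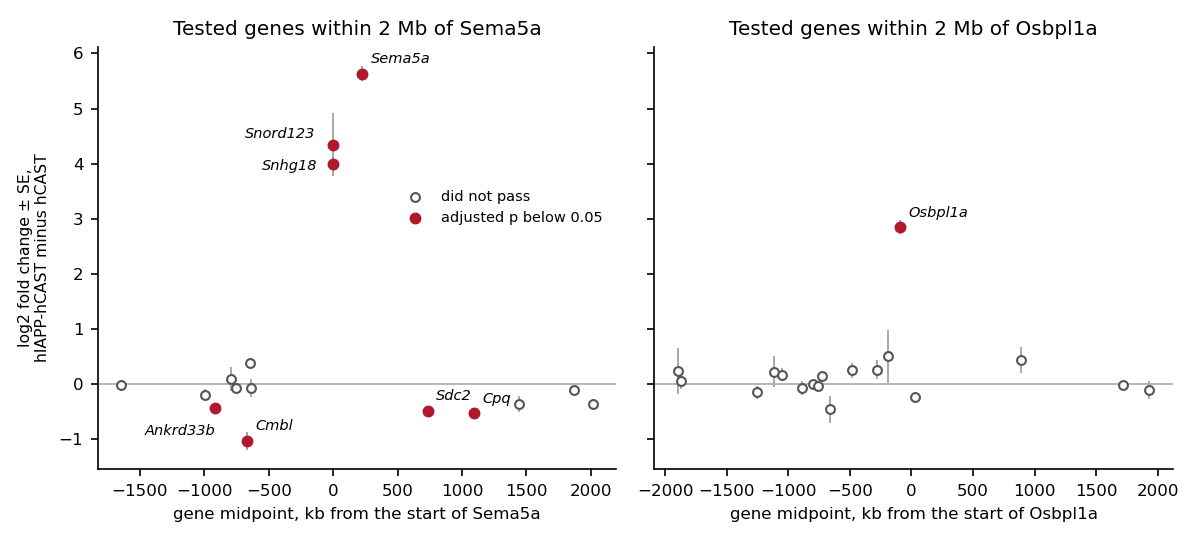
Log2 fold change (hIAPP-hCAST minus hCAST, ± SE) of each tested gene within 2 Mb of Sema5a (left) and of Osbpl1a (right), plotted against the gene's midpoint in kb from the start of Sema5a or Osbpl1a. Filled points passed at an adjusted p below 0.05: 7 of 16 genes around Sema5a, 3 of them higher and 4 lower, and 1 of 18 around Osbpl1a.

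The plot of both loci shows Sema5a, Snhg18 and Snord123 far above their neighbours, and Osbpl1a alone above a flat surround.

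Macrophage genes made up the largest named group among the rises. Of 26 tested members of a macrophage list 12 rose and 0 fell (background 0.517% higher), with a list median of 0.85 beside 0.01 for all tested genes. Their summed level was 491, 355 and 284 CPM in hIAPP-hCAST 1, 2 and 3, against 211, 203 and 219 CPM in hCAST 1, 2 and 3, with no overlap. Islets are a mixture of cells, and in bulk RNA more macrophages and more of these transcripts per macrophage cannot be told apart. The number of members called was 14 without hIAPP-hCAST 3 and 7 without hCAST 3. It was 6 without hIAPP-hCAST 2, 3 without hIAPP-hCAST 1, 2 without hCAST 1 and 2 without hCAST 2, and it was 2 without the 3 ribosomal-rich libraries and 0 in the fit of the 6 compared libraries. The list median was above 0 in these fits, at 0.65 to 1.01 with 1 library left out and 0.88 in the 6-library fit.

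Lyz2, lysozyme of myeloid cells, had 99, 55.7 and 42.2 CPM in hIAPP-hCAST and 11.6, 12.3 and 12.6 CPM in hCAST, and the lowest hIAPP-hCAST library was above the highest hCAST library (log2 fold change 2.43 ± 0.264 SE, edgeR adjusted p = 0.0013). It kept the call in each fit with 1 library left out and reached an adjusted p of 0.0977 in the 6-library fit. Lyz1, its near-identical neighbour, had 63 counts in hIAPP-hCAST and 4 in hCAST (ratio 14.7, counting interval 5.46 to 55.5), and reads shared by both genes make these values uncertain. Ms4a7, a membrane-spanning protein of macrophages, had 7.37, 4.97 and 5.95 CPM in hIAPP-hCAST and 3.26, 2.54 and 2.63 CPM in hCAST (log2 fold change 1.12 ± 0.162, adjusted p = 0.00244). Cx3cr1, the receptor for fractalkine, had 18.7, 15.5 and 11.4 CPM in hIAPP-hCAST and 6.16, 5.75 and 7.1 CPM in hCAST (1.26 ± 0.214, adjusted p = 0.0128).

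In both genes hIAPP-hCAST 2 and 3 were lower than hIAPP-hCAST 1, and still above all hCAST libraries. Ms4a7 kept its call with each library left out, and Cx3cr1 lost it without hCAST 1 or hCAST 2 (adjusted p at most 0.0976). Cd68, a lysosomal glycoprotein, rose by 1.51 ± 0.278 and Fcgr3, a low-affinity Fc receptor, by 1.06 ± 0.191 (adjusted p = 0.0185 and 0.0133). Csf1r, the receptor for the macrophage growth factor, Emr1, which encodes the antigen F4/80, Ctss, a cysteine protease, and Itgam, the CD11b integrin chain, rose by 0.82, 0.91, 0.88 and 0.93 on the log2 scale. Members that did not pass include markers of tissue-resident macrophages: Cd163 was at -1.25, Lyve1 at -0.33, Folr2 at -0.05 and Mrc1 at 0.09.

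Further called genes of myeloid cells lay outside the lists and were chosen after their values were seen. Fcrls, a scavenger receptor-like gene of microglia, had 217 counts in hIAPP-hCAST and 18 in hCAST (ratio 11.2, counting interval 6.94 to 19.3). Siglec1, the sialic acid receptor CD169 of macrophages, had 135 and 26 counts (ratio 4.84, 3.16 to 7.67), and Wfdc17, a secreted protein of myeloid cells, had 79 and 6 (ratio 12.3, 5.39 to 34.4). Acp5, the tartrate-resistant acid phosphatase of osteoclasts and macrophages, had 5.42, 4.03 and 3.24 CPM in hIAPP-hCAST and 2.1, 1.28 and 1.69 CPM in hCAST (log2 fold change 1.32 ± 0.23 SE, edgeR adjusted p = 0.0115). Gpr34, a lysophosphatidylserine receptor, Fcgr2b, the inhibitory Fc receptor, and Cd300a, an inhibitory receptor, rose by 1.38, 1.22 and 1.19 on the log2 scale. Mgl2, a lectin of dermal dendritic cells and some macrophages, went the other way, with 16 counts in hIAPP-hCAST and 67 in hCAST (ratio 0.223, 0.12 to 0.388, adjusted p = 0.0335). Ccr2, the chemokine receptor of monocytes, was at -1.24 and did not pass. Of the 6 fits that left out 1 compared library, Fcrls kept its call in 6, Acp5 and Cd300a in 5, Gpr34 and Siglec1 in 2, and Wfdc17, Fcgr2b and Mgl2 in 1.

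The RefSeq window of Lyz2 (GRCm38.p6, chr10:117282223-117282522, minus strand, printed in the direction of the gene) is shown as the promoter of the macrophage gene with the smallest p, and capitals mark a match to AGGAAGT, a core of sites of the myeloid factor PU.1, here on the opposite strand:
Lyz2: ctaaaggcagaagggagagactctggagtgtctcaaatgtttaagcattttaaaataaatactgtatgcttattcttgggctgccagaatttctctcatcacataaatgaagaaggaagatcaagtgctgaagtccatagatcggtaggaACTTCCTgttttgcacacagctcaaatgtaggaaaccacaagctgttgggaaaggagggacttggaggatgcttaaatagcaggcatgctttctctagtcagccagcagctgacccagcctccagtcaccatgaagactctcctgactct
Of the 19 called macrophage and lipid-associated genes 16 had a RefSeq window. Among them 5 (C1qb, C1qc, Ctss, Lyz1 and Lyz2) held AGGAAGT on either strand, in 5 of 22 windows, where 9.35% of 32851 windows hold it. Lyz1 and Lyz2 are near-identical neighbours and may not count as separate cases. The share was not tested against that of all windows.

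Genes of macrophages that handle lipid or amyloid rose in 7 of 24 tested (background 0.517% higher), with 0 falling and a median of 0.50. Trem2, a lipid receptor of such macrophages and of microglia, had 6.76, 3.27 and 2.49 CPM in hIAPP-hCAST and 0.72, 0.86 and 1.1 CPM in hCAST (log2 fold change 2.21 ± 0.346 SE, edgeR adjusted p = 0.00598). Gpnmb, a transmembrane glycoprotein of lysosome-rich macrophages, had 5.42, 4.28 and 1.73 CPM in hIAPP-hCAST and 0.6, 0.915 and 1.2 CPM in hCAST (2.06 ± 0.404, adjusted p = 0.0343), with hIAPP-hCAST 3 nearest to hCAST. Apoe, the lipid carrier apolipoprotein E, had 763, 621 and 457 CPM in hIAPP-hCAST and 255, 259.7 and 324 CPM in hCAST (1.13 ± 0.154, adjusted p = 0.0019), and the groups did not overlap. Trem2 lost its call without hCAST 2 (adjusted p = 0.0557), Gpnmb lost it with any compared library but hIAPP-hCAST 3 left out, and Apoe kept it in each of these fits.

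Clec7a, the receptor dectin-1, rose by 1.55 ± 0.329, Lgmn, the lysosomal protease legumain, by 0.51 ± 0.0702, and Axl, a receptor for dying cells, by 0.42 ± 0.091. Atp6v0d2, a proton pump subunit, had 108 counts in hIAPP-hCAST and 12 in hCAST (ratio 8.39, counting interval 4.61 to 16.7). Spp1 and Lpl, also members of this list, were at -0.29 and -0.33 and did not pass. The count of 7 was 10 without hIAPP-hCAST 3, 6 without hCAST 3, 4 without hIAPP-hCAST 2, 3 without hIAPP-hCAST 1, 3 without hCAST 1, 2 without hCAST 2, and 0 in the 6-library fit, and 1 member was called lower without hIAPP-hCAST 1 or without hIAPP-hCAST 2. Further called genes that the rule names were Csf3r, the receptor for granulocyte colony-stimulating factor, at 2.22 ± 0.388, Cd84, a receptor of the SLAM family, at 2.14 ± 0.24, and Pla2g7, the platelet-activating factor acetylhydrolase, with 12.1, 10.5 and 8.99 CPM in hIAPP-hCAST and 3.22, 4.3 and 4.89 CPM in hCAST (1.34 ± 0.145, adjusted p = 0.000212).

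Complement genes rose in 5 of 17 tested (background 0.517% higher) with 0 falling and a median of 0.36. C1qb and C1qc, chains of the initiating C1q complex, had log2 fold changes of 0.76 ± 0.161 and 0.96 ± 0.195 (adjusted p = 0.0367 and 0.0335), and C1qa, the remaining chain, was at 0.28 and did not pass. C3ar1 and C5ar1, the receptors for the C3a and C5a fragments, rose by 1.32 ± 0.268 and 1.4 ± 0.303. Itgam, part of complement receptor 3, is also in the macrophage list, and so are the C1q genes. C3, C4b and Cfb, which carry the cascade on, were at -0.66, -0.05 and -0.22 and did not pass. The count of 5 was 8 without hIAPP-hCAST 3, 4 without hCAST 3, 0 without any of the other compared libraries and 0 in the 6-library fit.

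**Figure D2:**
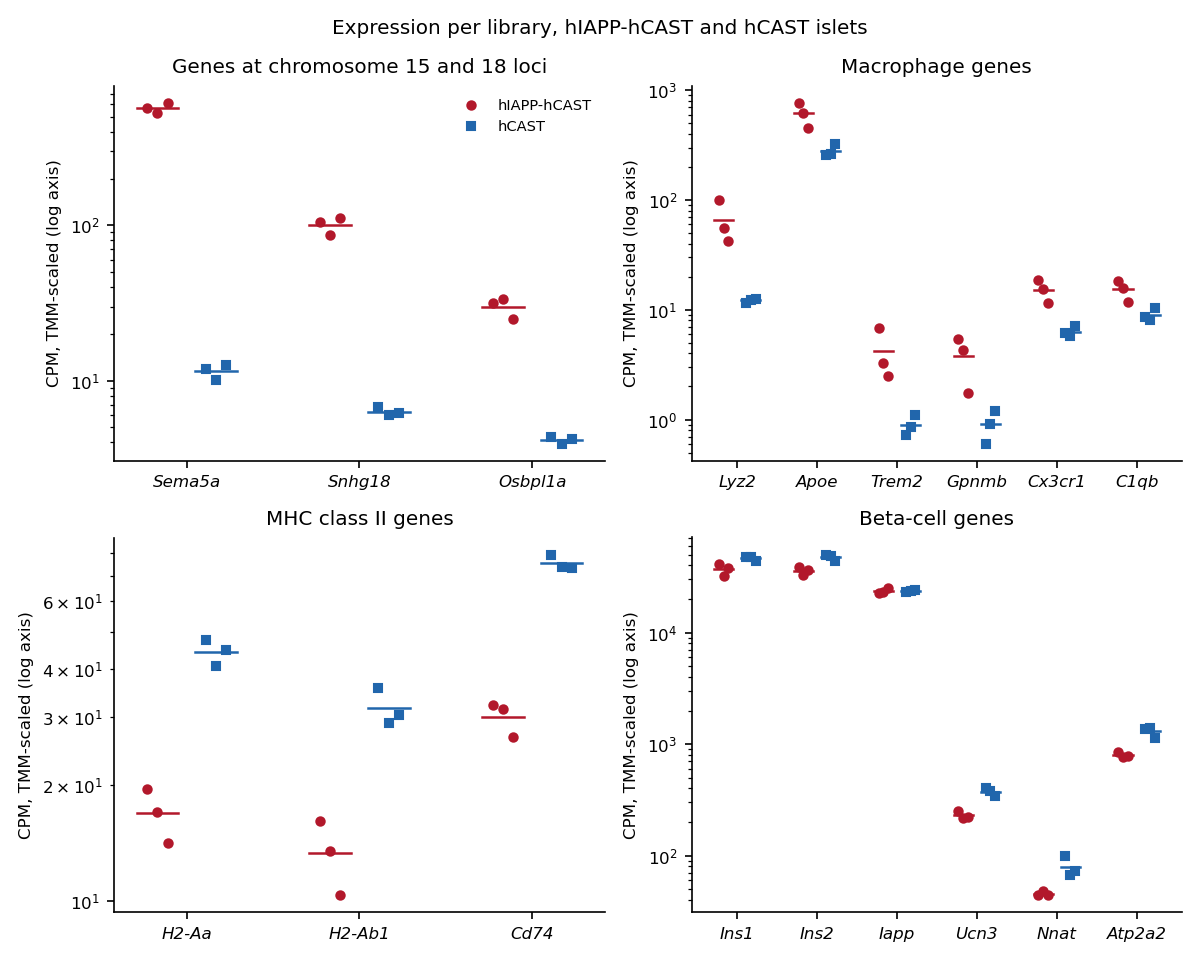
TMM-scaled CPM (log axis) of named genes in each hIAPP-hCAST library (circles, left) and each hCAST library (squares, right), with the group mean as a bar, for genes at the chromosome 15 and 18 loci, macrophage genes, MHC class II genes and beta-cell genes. Macrophage genes were higher in the 3 hIAPP-hCAST libraries (Lyz2 at 42.2 to 99.0 CPM against 11.6 to 12.6 CPM) and MHC class II genes were lower (H2-Aa at 14.1 to 19.5 CPM against 40.6 to 47.7 CPM).

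The per-library plot also shows that Trem2, Gpnmb and Cx3cr1 were lowest in hIAPP-hCAST 3 among the libraries of that group.

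MHC class II genes, which antigen-presenting cells use to show peptides to CD4 T cells, went the other way from the macrophage genes. Of 10 tested 3 fell and 0 rose (background 0.233% lower), all 10 had a log2 fold change below 0, and the median was -0.81. The summed level was 73.8, 67.1 and 55.5 CPM in hIAPP-hCAST against 171, 151 and 155 CPM in hCAST, with no overlap. H2-Aa, the alpha chain of the class II molecule I-A, had 19.5, 17 and 14.1 CPM in hIAPP-hCAST and 47.7, 40.6 and 45 CPM in hCAST (log2 fold change -1.4 ± 0.235 SE, edgeR adjusted p = 0.0178). H2-Ab1, its beta chain, had 16.2, 13.4 and 10.3 CPM in hIAPP-hCAST and 35.7, 29 and 30.4 CPM in hCAST (-1.26 ± 0.192, adjusted p = 0.00714). Cd74, the invariant chain that guides class II molecules to endosomes, had 32.2, 31.5 and 26.6 CPM in hIAPP-hCAST and 79.4, 73.7 and 73.2 CPM in hCAST (-1.32 ± 0.222, adjusted p = 0.0178).

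The groups did not overlap in any of these 3 genes. H2-Aa and Cd74 also passed in the 6-library fit (adjusted p = 0.00812 and 0.00104), and H2-Ab1 did not (0.0562). H2-Ab1 kept its call in each fit with 1 library left out. H2-Aa lost it without hIAPP-hCAST 2, hCAST 1 or hCAST 2 (adjusted p at most 0.0844), and Cd74 without hIAPP-hCAST 1, hIAPP-hCAST 2, hCAST 1 or hCAST 2 (at most 0.0825). H2-Eb1, a beta chain of I-E, was at -1.31 ± 0.354 (adjusted p = 0.112) on under 1 CPM, and Ciita, the coactivator of class II transcription, was at -0.61, and neither passed. In hIAPP minus WT H2-Aa, H2-Ab1 and Cd74 were likewise lower, at -1.17 ± 0.244, -1.14 ± 0.203 and -1.11 ± 0.228.

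The RefSeq window of H2-Aa (GRCm38.p6, chr17:34287774-34288073, minus strand, printed in the direction of the gene) is shown as that of a class II gene that fell, and capitals mark CTGATTGG, the Y box letters of class II promoters:
H2-Aa: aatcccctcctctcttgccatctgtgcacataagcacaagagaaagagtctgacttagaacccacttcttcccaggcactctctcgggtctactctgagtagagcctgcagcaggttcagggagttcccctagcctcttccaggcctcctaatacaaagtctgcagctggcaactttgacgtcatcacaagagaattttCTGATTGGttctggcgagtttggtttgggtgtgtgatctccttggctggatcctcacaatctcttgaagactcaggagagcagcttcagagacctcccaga
On either strand these letters were in 3 of the 7 listed class II genes with a window, H2-Aa, H2-Eb1 and H2-Oa, and in 4.1% of the 32851 windows.

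Lymphocyte genes were few, with 8 of 22 listed genes tested, and 2 of them rose and 0 fell (background 0.517% higher). Cd79a, a chain of the B-cell receptor complex, had 24.9, 24 and 24.3 CPM in hIAPP-hCAST and 13.6, 7.94 and 11.8 CPM in hCAST (log2 fold change 1.13 ± 0.164 SE, edgeR adjusted p = 0.0026), and kept its call with each library left out. Its partner Cd79b and the B-cell genes Ms4a1 and Pax5 were below the filter on low counts, as were the T-cell receptor genes Cd3d, Cd3e and Cd3g and Cd8a. Cd4, the coreceptor of helper T cells, had 0.985, 0.697 and 0.717 CPM in hIAPP-hCAST and 0.14, 0.256 and 0.0761 CPM in hCAST (2.31 ± 0.385, adjusted p = 0.00769), from 134 and 25 counts, and lost the call without hCAST 1 (adjusted p = 0.0503). Lck, a kinase of T cells, did not pass at 0.69 ± 0.228. Among 26 tested chemokine and cytokine genes 1 rose: Cxcl13, a B-cell attractant, with 104 counts in hIAPP-hCAST and 12 in hCAST (ratio 8.08, counting interval 4.43 to 16.1, adjusted p = 0.0026). Ccr1, a receptor of monocytes, was at -1.45 ± 0.335 (adjusted p = 0.0548) and did not pass.

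Beta-cell identity genes gave few calls. Of 32 tested 1 fell and 0 rose (background 0.233% lower), with a median of -0.16, and 27 had a log2 fold change below 0. The number lower was 5 with DESeq2, 2 without hIAPP-hCAST 1, and 0 without hIAPP-hCAST 2, hCAST 1 or hCAST 2. Ucn3, the peptide urocortin 3 that marks maturity, had 249.7, 218 and 221 CPM in hIAPP-hCAST and 401, 382 and 341 CPM in hCAST, with every hIAPP-hCAST library below every hCAST library (log2 fold change -0.71 ± 0.126 SE, edgeR adjusted p = 0.013), and lost its call without hIAPP-hCAST 2, hCAST 1 or hCAST 2 (adjusted p at most 0.0792). Ins1 had 40973, 32404 and 38116 CPM in hIAPP-hCAST and 47694, 48056 and 43639 CPM in hCAST (-0.32 ± 0.134, adjusted p = 0.432) and Ins2 had 38665, 32836 and 36675 CPM in hIAPP-hCAST and 50138, 48678 and 43863 CPM in hCAST (-0.4 ± 0.112, adjusted p = 0.134).

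Both insulin genes were lower in each hIAPP-hCAST library without passing. Trpm5, a calcium-activated cation channel of beta cells, had 66.1, 57.6 and 47.1 CPM in hIAPP-hCAST and 132, 135 and 128 CPM in hCAST (-1.21 ± 0.287, adjusted p = 0.103) and did not pass, though its groups were well apart and it was called in the 6-library fit (adjusted p = 0.0117). Ero1lb, an oxidase for disulfide bonds of proinsulin, was at -0.58 ± 0.15 (adjusted p = 0.103) and Glp1r, the incretin receptor, at -0.52 ± 0.205 (adjusted p = 0.412). The transcription factors Pdx1, Mafa and Nkx6-1 were at -0.22, -0.31 and -0.17 and did not pass. With the acinar level as a covariate, an alternative added after seeing the data, 1 of the beta-cell identity genes was lower and the list median was -0.17.

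Of 25 prohormone and granule genes 1 fell and 0 rose (background 0.233% lower and 0.517% higher). It was Nnat, a small membrane protein that aids signal peptidase in beta cells, with 44, 48.2 and 44 CPM in hIAPP-hCAST and 98.4, 67 and 72.6 CPM in hCAST (log2 fold change -0.81 ± 0.134 SE, edgeR adjusted p = 0.0102), lower in each hIAPP-hCAST library and called with each library left out. Chga, chromogranin A, and Syt13, a synaptotagmin, were at -0.31 ± 0.115 and -0.24 ± 0.0969 and did not pass. Among 24 genes of ion channels and calcium handling Atp2a2, the calcium pump SERCA2 of the endoplasmic reticulum, had 849, 770.2 and 786 CPM in hIAPP-hCAST and 1369, 1408 and 1137 CPM in hCAST (-0.7 ± 0.105, adjusted p = 0.0031). It kept its call with each library left out. Scn3a, a sodium channel, was the 1 that rose, with 27.2, 24 and 24.3 CPM in hIAPP-hCAST and 17.7, 17.8 and 19.1 CPM in hCAST (0.47 ± 0.0828, adjusted p = 0.0119). Of 17 genes that mature beta cells keep low or that mark dedifferentiation 1 rose, Cd81, a tetraspanin, with 136, 127 and 126 CPM in hIAPP-hCAST and 90.5, 90.7 and 91.8 CPM in hCAST (0.51 ± 0.104, adjusted p = 0.0315), and it passed in the 6-library fit (0.0411) but not in 5 of the 6 fits with 1 library left out (up to 0.167). Serpina7 and Sox9 were at 0.99 ± 0.25 and -1.17 ± 0.306 and did not pass.

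The other endocrine cells gave no call. In 12 alpha-cell genes the median was -0.08, and in 9 genes of delta and PP cells it was 0.07. Gcg, glucagon, had 17161 ± 642 CPM in hIAPP-hCAST and 16841 ± 866 CPM in hCAST (SD, n = 3 each), Sst, somatostatin, had 1279.9 ± 50.3 CPM in hIAPP-hCAST and 1413 ± 146 CPM in hCAST, and Ppy, pancreatic polypeptide, had 1809 ± 181 CPM in hIAPP-hCAST and 1663 ± 451 CPM in hCAST, with overlap in all 3 and adjusted p of 0.983, 0.782 and 0.973 in edgeR. Dpp4, a peptidase of alpha cells, was at -0.46 ± 0.104 (adjusted p = 0.054), Ptchd1 at 1.1 ± 0.252 (0.0544) and Hhex, a factor of delta cells, at -0.53 ± 0.124 (0.0595).

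**Figure D3:**
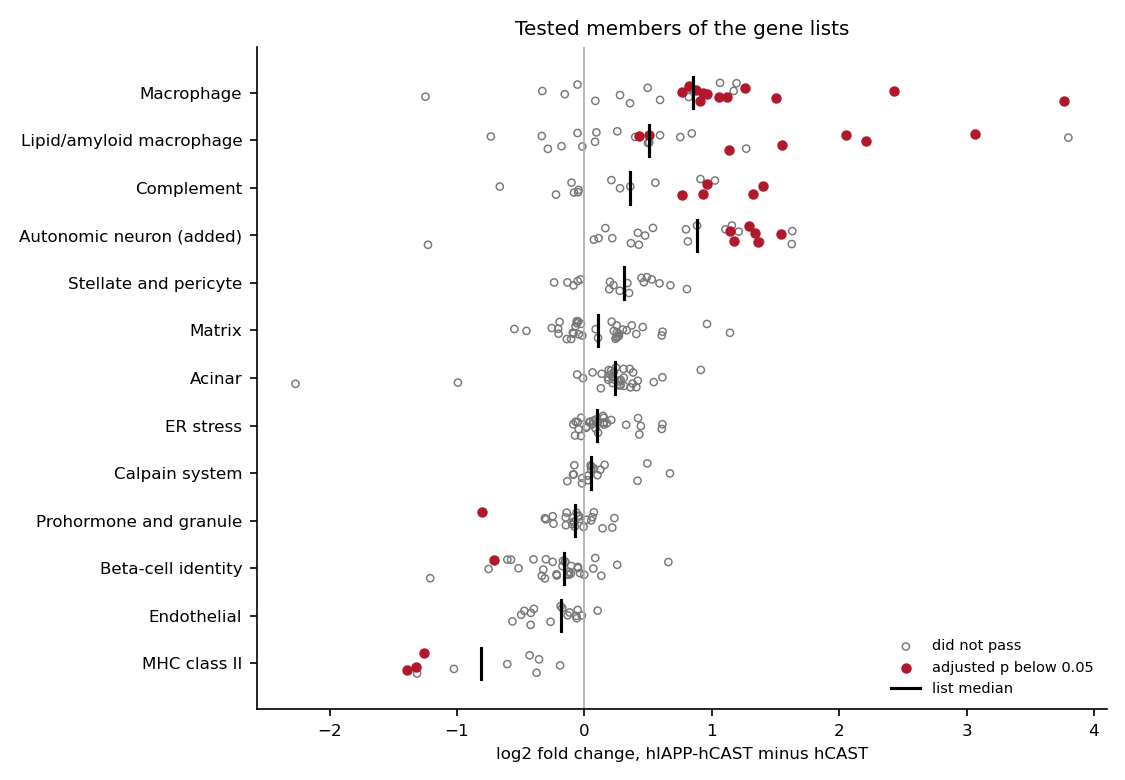
Log2 fold change (hIAPP-hCAST minus hCAST) of each tested member of 13 gene lists, with filled points where the adjusted p was below 0.05 and a bar at the list median. The macrophage list has 12 filled points to the right and a median of 0.85, the MHC class II list has 3 to the left and a median of -0.81, and the matrix, acinar, ER stress and calpain lists have none.

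The plot of list members shows 22 of 26 macrophage genes above 0 and all 10 MHC class II genes below 0. Other lists also leaned to one side. Above 0 were 24 of 25 autonomic neuron genes and 30 of 34 acinar genes, but 1 of 16 endothelial genes and 5 of 32 beta-cell identity genes. The median of all tested genes was 0.01. The autonomic neuron list was added after its values were seen. The acinar lean rested on single libraries, as the list median was -0.71 without hIAPP-hCAST 2 and 0.77 without hIAPP-hCAST 3.

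Matrix genes, the collagens, fibronectin, cross-linkers and proteases of the extracellular scaffold, gave 0 calls of 37 tested (median 0.11). Their sum was 1700, 1630 and 912 CPM in hIAPP-hCAST against 1160, 1270 and 1590 CPM in hCAST, and the groups overlapped, with hIAPP-hCAST 3 below all the other libraries. Without hIAPP-hCAST 3 the list had 5 rises and a median of 0.34. Fn1, fibronectin, had 7.16, 6.83 and 4.03 CPM in hIAPP-hCAST and 2.7, 2.71 and 3.81 CPM in hCAST (log2 fold change 0.96 ± 0.226 SE, edgeR adjusted p = 0.0664), Lox, lysyl oxidase, was at 1.14 ± 0.437 (adjusted p = 0.378) and Timp2, a protease inhibitor, at 0.26 ± 0.08 (0.204). Stellate and pericyte genes gave 0 calls of 18 (median 0.31), with Pdgfrb, their growth factor receptor, at 0.53 ± 0.142 (adjusted p = 0.119), and 5 rose without hIAPP-hCAST 3. Endothelial genes gave 0 of 16, with 15 below 0 and a median of -0.18, and Eng, a coreceptor of vessel walls, was at -0.42 ± 0.115 (0.116).

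Acinar genes gave 0 calls of 34 (median 0.24), and their sum ranged from 8320 to 121000 CPM in hIAPP-hCAST and from 38200 to 81400 CPM in hCAST. The list median was -0.71 without hIAPP-hCAST 2 and 0.77 without hIAPP-hCAST 3. With the acinar covariate the whole comparison gave 355 calls (243 higher and 112 lower) and the macrophage list 13 higher.

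Genes of autonomic neurons formed a list added after values of these genes were seen. Of 25 tested 6 rose and 0 fell (background 0.517% higher), and the median was 0.88. Because the list was written with these values known, neither its count nor its median can be read as an excess over the background. Their sum was 361, 548 and 424 CPM in hIAPP-hCAST against 343, 342 and 350 CPM in hCAST. Nos1, the neuronal nitric oxide synthase, had 3.47, 6.81 and 4.46 CPM in hIAPP-hCAST and 1.64, 1.59 and 1.81 CPM in hCAST (log2 fold change 1.54 ± 0.297 SE, edgeR adjusted p = 0.0238), and Prph, the intermediate filament peripherin, had 9.15, 16.1 and 7.71 CPM in hIAPP-hCAST and 2.96, 3.88 and 5.92 CPM in hCAST (1.36 ± 0.264, adjusted p = 0.0315). Sncg, a synuclein, Avil, an actin-binding protein, Nefl, a neurofilament, and Chrna3, a nicotinic receptor subunit of ganglia, rose by 1.14, 1.17, 1.29 and 1.34 on the log2 scale, each highest in hIAPP-hCAST 2. The count was 10 without hIAPP-hCAST 3, 6 without hCAST 3, 5 without hIAPP-hCAST 1, 1 without hIAPP-hCAST 2, 0 without hCAST 1 or without hCAST 2, and 0 in the 6-library fit. It was 1 without the 3 ribosomal-rich libraries, and the list median was 0.41 without hIAPP-hCAST 2. In hIAPP minus WT 0 of these 25 were called higher and 2 lower, with a median of 0.57, and Nos1, Prph, Avil, Nefl, Chrna3 and Sncg were at 1.04, 0.92, 0.83, 0.75, 0.92 and 0.37 without passing. The library with the highest neuronal sum, hIAPP-hCAST 2, also had the highest acinar share of the 6. With the acinar covariate, added after seeing the data, 11 members were called higher and the median was 0.93. That fit called 355 genes in all, against 116 in the main fit. Whether the neuronal level goes with the acinar share was not tested.

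Duct genes (0 of 16, median -0.03) and Schwann and glial genes (0 of 12, median 0.25) gave no call, and of 11 genes of erythroid and fat cells 1 was tested and did not pass.

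**Figure D4:**
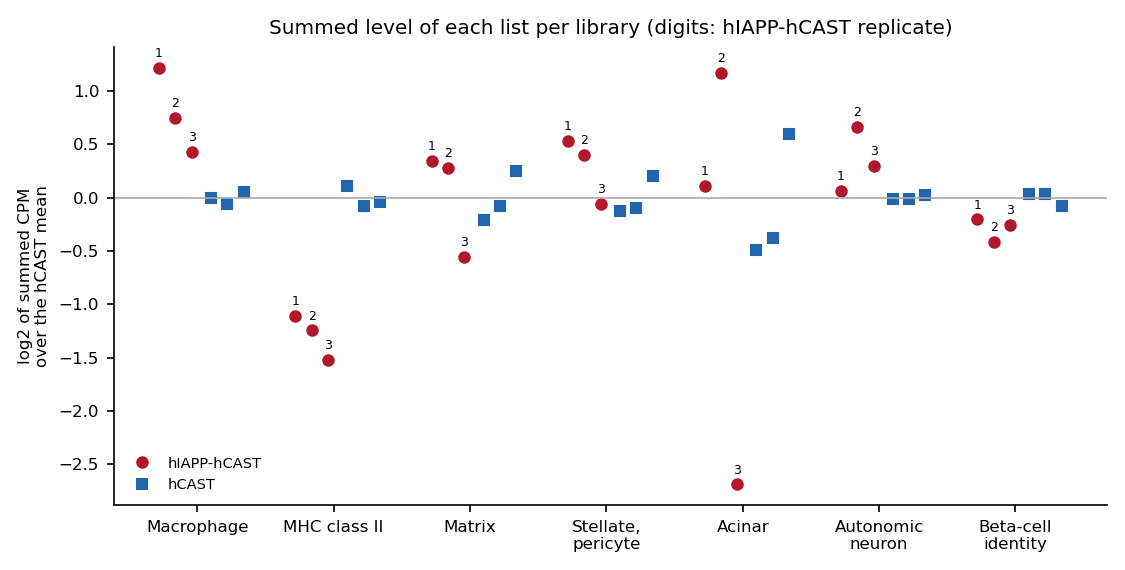
Summed CPM of 7 gene lists in each library, as log2 of the ratio to the hCAST mean, with hIAPP-hCAST libraries as numbered circles on the left and hCAST libraries as squares on the right. Macrophage sums lie above all hCAST libraries and MHC class II sums below them in hIAPP-hCAST 1, 2 and 3, whereas hIAPP-hCAST 3 alone is far down in acinar genes and down in matrix genes.

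The plot of list sums places hIAPP-hCAST 3 lowest of its group in macrophage, MHC class II, matrix, stellate and acinar genes, but not in neuronal or beta-cell genes.

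Lists of cell stress and metabolism gave no call. These were 30 genes of ER stress (median 0.10), with Txnip and Ppp1r15a at 0.43 ± 0.13 and 0.42 ± 0.13 (adjusted p = 0.18 and 0.194 in edgeR), 16 heat shock genes (-0.01), 21 antioxidant genes (0.03), 34 genes of lysosome and autophagy (0.02), 16 of p53 and growth arrest (0.14), 30 of the cell cycle (-0.14), 21 immediate early genes (0.37), 25 of glycolysis and hypoxia (0.06), 29 of the respiratory chain (0.01), 27 of interferon response and MHC class I (-0.01) and 22 islet receptors (-0.07). Nqo1, a quinone reductase, had the smallest p of the antioxidant genes at -1.27 ± 0.337 (adjusted p = 0.133), and Ctsh and Ctsd, lysosomal cathepsins, were at 0.79 ± 0.188 and 0.4 ± 0.113 (0.0643 and 0.135). Egr2, an immediate early factor, was at 1.23 ± 0.348 (0.135), Pfkp, a phosphofructokinase, at 0.34 ± 0.0832 (0.0697), Gdf15, a stress cytokine, at 0.75 ± 0.308 (0.423), and Vipr1, a receptor for vasoactive intestinal peptide, at -0.32 ± 0.0805 (0.0834), and none of these passed.

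In 22 cholesterol genes 1 rose, Osbpl1a, and in 31 semaphorin, plexin and neuropilin genes 1 rose, Sema5a (background 0.517% higher). Plxnc1, a semaphorin receptor, was at 1.0 ± 0.245 (edgeR adjusted p = 0.0775) and did not pass. The calpain system gave 0 calls of 18 (median 0.05): Capn5 was at 0.42 ± 0.114, Capn7 at -0.13 ± 0.0711 and Uchl1, a deubiquitinating enzyme of neurons and endocrine cells, at 0.67 ± 0.189 (adjusted p = 0.119, 0.603 and 0.144).

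The same transgene was compared without calpastatin, as hIAPP minus WT, with which the present comparison shares no library. There 969 genes were higher (6.27%) and 864 lower (5.59%) of the same 15460, and the count was 383 without WT 2, WT 3 and rIAPP 2, the libraries rich in ribosomal reads. Of the 80 genes higher in hIAPP-hCAST 63 were also higher in hIAPP (78.8% of the 80 and 6.5% of the 969), and of the 36 lower 25 were also lower (69.4% and 2.89% of the 864). Each of the 116 had the same sign in both comparisons, 0 were called in opposite directions, and 72 of the 116 had the smaller fold change on the hCAST background. These genes were chosen by their values on the hCAST background, and the counts carry no test. The numbers in the sample titles of hIAPP lie close to those of hIAPP-hCAST, and those of WT close to those of hCAST. In both comparisons, therefore, the number ranges and the human IAPP transgene cannot be told apart, and the shared signs do not separate them.

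The difference between backgrounds was tested as an interaction, and edgeR called 0 genes (1346 at an unadjusted p below 0.05, of which 771 were negative, meaning a smaller or more negative human IAPP difference with calpastatin). DESeq2 called 47, 15 positive and 32 negative, and log2 of FPKM plus 1 called 50, of which 49 were negative with the median of all genes itself at -1.22. The genes of smallest p were Sdc1, the epithelial syndecan, Loxl1, an elastin cross-linker, Ecm1, an extracellular matrix protein, Mgp, an inhibitor of calcification, Fn1 and Ikzf2, a transcription factor. Loxl1 had 3.24, 4.51 and 2.59 CPM in hIAPP-hCAST and 3.22, 3.71 and 3.86 CPM in hCAST (log2 fold change -0.07 ± 0.174), and it had 9.63, 9.48 and 7.97 CPM in hIAPP and 2.75, 4.38 and 3.55 CPM in WT (log2 fold change 1.5 ± 0.204). The difference was -1.57 ± 0.268 SE (unadjusted p = 2.04e-05, adjusted p = 0.158 in edgeR and 0.00160 in DESeq2).

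Sdc1 was at 0.0011 on the hCAST background and at 1.21 ± 0.149 in hIAPP minus WT, a difference of -1.21 ± 0.195 (adjusted p = 0.158 in edgeR and 0.000819 in DESeq2), and Fn1 differed by -1.84 ± 0.359 (adjusted p = 0.243 and 0.00267). Ecm1 and Mgp differed by -1.41 ± 0.261 and -0.97 ± 0.19, and Ikzf2 by 0.58 ± 0.117 in the positive direction. For Ecm1, Mgp and Ikzf2 the adjusted p was 0.243 each in edgeR, and 0.0068, 0.00562 and 0.0147 in DESeq2. Nnat, with 44.0 to 48.2 CPM in hIAPP-hCAST, differed by 0.89 ± 0.192 (adjusted p = 0.243 in edgeR), with log2 fold changes of -0.81 on the hCAST background and -1.69 ± 0.14 in hIAPP minus WT.

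By list, the matrix genes had 0 called and a median of 0.11 on the hCAST background, against 27 of 37 higher and a median of 1.40 in hIAPP minus WT. Of all tested genes 0.517% were called higher and 0.233% lower on the hCAST background, against 6.27% and 5.59% in hIAPP minus WT. With such unlike shares, the called counts of a list cannot be compared directly between the backgrounds. Without WT 2, WT 3 and rIAPP 2 the hIAPP minus WT calls went from 1833 to 383, and counts by list were not taken there. Without hIAPP-hCAST 3 the matrix list had 5 rises and a median of 0.34 on the hCAST background. All 37 differences between backgrounds were negative, 25 at an unadjusted p below 0.05 and 0 after adjustment in edgeR. Of all 15460 tested genes 1346 were at such an unadjusted p, and 771 of these were negative. DESeq2, which called 47 differences over all genes, called 4 of the 37 matrix genes, all negative (Col18a1, Fn1, Fbln1 and Loxl1). Macrophage genes were called in 12 of 26 on the hCAST background and in 20 of 26 in hIAPP minus WT (medians 0.85 and 1.56), 23 of the 26 differences were negative, and DESeq2 called 2, Lyz2 and Ms4a7. Lipid and amyloid macrophage genes were called in 7 and 12 of 24, complement genes in 5 and 11 of 17. DESeq2 called 1 difference in each of these lists, Apoe and C3, both negative. Beta-cell identity genes fell in 1 of 32 on the hCAST background and in 16 of 32 in hIAPP minus WT (medians -0.16 and -0.41), and 7 of the 32 differences were negative. In edgeR no difference passed in any of these lists, and with DESeq2 0 beta-cell identity genes did.

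**Figure D5:**
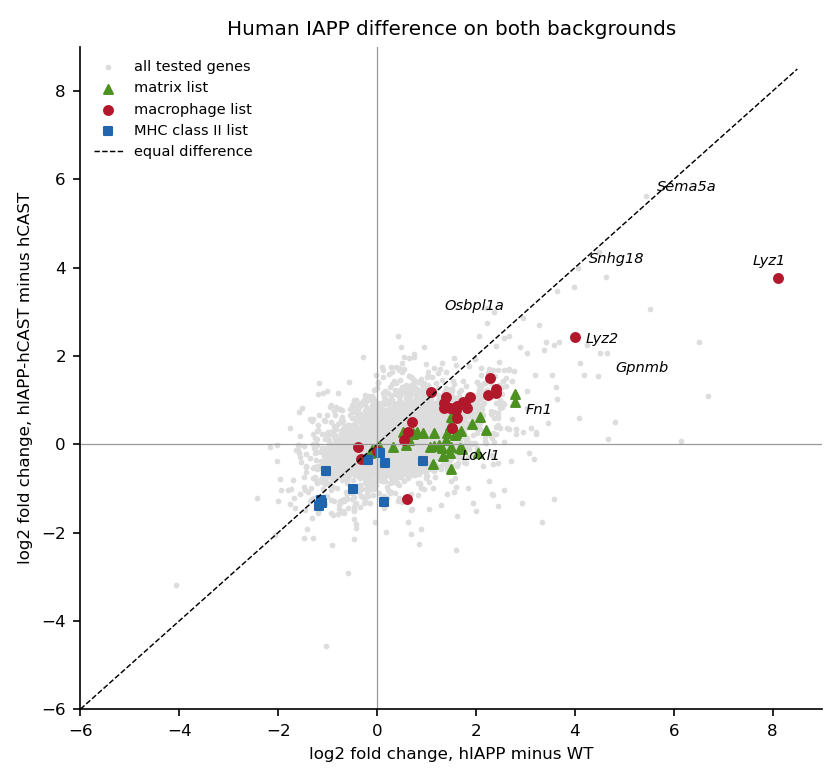
Log2 fold change of each tested gene in hIAPP-hCAST minus hCAST (vertical axis) and in hIAPP minus WT (horizontal axis), with the matrix, macrophage and MHC class II lists marked and a dashed line where both are equal. Matrix genes lie to the right of 0 but near 0 on the vertical axis (medians 0.11 on the vertical and 1.40 on the horizontal axis), and Sema5a and Snhg18 lie close to the dashed line.

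The plot of both backgrounds shows 22 of 26 macrophage genes above 0 on the vertical axis and 23 to the right of the dashed line, and all 10 MHC class II genes below 0 on the vertical axis. The ribosomal-rich genes held 9.4% to 94.3% of the counts in WT libraries and 0.351% to 7.63% in hIAPP libraries, and the interaction without WT 2, WT 3 and rIAPP 2 called 0 genes in edgeR.

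Tmem45a, a transmembrane protein, had the largest fall among called genes with a mean of at least 1 CPM, at 0.966, 0.755 and 0.467 CPM in hIAPP-hCAST and 2.58, 2.58 and 2.91 CPM in hCAST (log2 fold change -1.89 ± 0.222 SE, edgeR adjusted p = 0.000346), and kept its call with each library left out, as did Scara3, a scavenger receptor-like protein, at -1.31 ± 0.219. Alb, serum albumin, had 0.738, 1.1 and 0.389 CPM in hIAPP-hCAST and 2.58, 1.88 and 2.63 CPM in hCAST (-1.68 ± 0.302, adjusted p = 0.0128). Crp, C-reactive protein, and Acnat1, an acyltransferase, both best known from liver, were at -1.5 ± 0.326 and -1.52 ± 0.318, and Mcoln3, a cation channel of endosomes, and Fgfr2, a fibroblast growth factor receptor, at -1.34 ± 0.257 and -0.99 ± 0.203. Alb kept its call in 5 of the 6 fits that left out 1 compared library, losing it without hCAST 1, and Crp, Acnat1, Mcoln3 and Fgfr2 kept theirs in 3 each. Among the rises Zfp551, a zinc finger protein, had 7.25, 7.57 and 6.64 CPM in hIAPP-hCAST and 3.12, 2.6 and 3.25 CPM in hCAST (1.26 ± 0.145, adjusted p = 0.000323), and Rtp1, a receptor transporter, was at 1.41 ± 0.266 and kept its call in 3 of those fits, against 6 for Zfp551. The mean CPM of Zfp551 was also higher in rIAPP, at 6.22, than in WT, at 2.97, which was not tested here. A few called genes nearly vanished in hIAPP-hCAST and were chosen here after their values were seen: Sost, the bone protein sclerostin, had 2 counts in hIAPP-hCAST and 54 in hCAST (ratio 0.0345, counting interval 0.00408 to 0.131), Hsd3b2, a steroid dehydrogenase, had 11 and 97 (ratio 0.106, 0.0511 to 0.198), and Cyp2j5, a cytochrome P450 of liver and kidney, had 24 and 175 (ratio 0.128, 0.0797 to 0.196). Sost kept its call in 6 of those fits, Hsd3b2 in 4 and Cyp2j5 in 3.

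Among called genes of higher level, also chosen after their values were seen, Prss53, a serine protease, had 227, 195 and 255 CPM in hIAPP-hCAST and 380.2, 419 and 343 CPM in hCAST (log2 fold change -0.76 ± 0.16 SE, edgeR adjusted p = 0.0436). Maob, a monoamine oxidase of mitochondria, had 70, 70.3 and 84.9 CPM in hIAPP-hCAST and 109.6, 113 and 108 CPM in hCAST (-0.55 ± 0.1, adjusted p = 0.0136), and Prkcb, a protein kinase C, had 64.2, 71.1 and 78.8 CPM in hIAPP-hCAST and 108, 107 and 102 CPM in hCAST (-0.57 ± 0.0861, adjusted p = 0.00325). In these 3 genes every hIAPP-hCAST library was below every hCAST library. Igfbp7, a secreted binding protein of insulin-like growth factors, had 347, 312 and 286.2 CPM in hIAPP-hCAST and 196, 204 and 213 CPM in hCAST (0.62 ± 0.0945, adjusted p = 0.00325), and Trf, the iron carrier transferrin, had 24.5, 17.1 and 13.6 CPM in hIAPP-hCAST and 6.42, 7.15 and 7.31 CPM in hCAST (1.4 ± 0.201, adjusted p = 0.00326). Both were higher in each hIAPP-hCAST library. Aqp4, a water channel, was at 1.23 ± 0.243 (adjusted p = 0.0335). With 1 compared library left out, Prkcb, Igfbp7 and Trf kept the call in 6 of 6 fits, Aqp4 in 3, Maob in 2 and Prss53 in 1.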

How the data were processed

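RNA was sequenced from bulk mouse islets in 15 libraries, 3 in each of 5 groups, and the 3 hIAPP-hCAST and 3 hCAST libraries were compared. Per the labels' protocols, RNA was purified with an RNeasy Mini Kit, depleted of ribosomal RNA and made into libraries with NuGEN and TruSeq reagents. STAR and HTSeq with GRCm38 are named in the submitters' processing notes, with no settings. The authors deposited raw counts per gene and FPKM, which are scaled to gene length and library size.

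Counts of all 15 libraries were fitted with edgeR 4.0.16 in R 4.3.3 (TMM scaling, filterByExpr, robust quasi-likelihood, 1 coefficient a group), which kept 15460 of 24060 genes at a biological coefficient of variation of 0.132. Genes were called at a Benjamini-Hochberg adjusted p below 0.05, and SE is the fold change over the root of F. CPM of each library rest on 34904705 to 40191501 counts, and intervals of count ratios are exact at 95% and cover counting error only. DESeq2 1.42.0 and limma 3.58.1 on log2 of FPKM plus 1 or 0.1 were alternatives, with other filters, thresholds and left-out libraries. The edgeR, DESeq2 and limma fits were also run on simulated counts, with limma on per-million values and not on FPKM. The outcome of those runs is not given here.

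The comparison and its 33 gene lists were chosen with earlier results of these data known, and 1 list was added after values were seen. Named genes are the 12 largest rises and falls with at least 1 CPM, the members of each list with the smallest p, the 6 with the smallest p overall and in the interaction, the neighbours of Sema5a and Osbpl1a, and the hormones. Members of the lists given as examples of what did not pass were chosen after their values were seen. Sex, litter and counting strand: not given in the sources used here.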

Additional observations from a re-analysis of the deposited data

How the results depend on the processing

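The count of 116 genes in hIAPP-hCAST against hCAST was 258 with DESeq2, 53 without the 3 ribosomal-rich libraries, 9 with only the compared groups, 19 on log2(FPKM + 1), 13 on log2(FPKM + 0.1), 13 on log2(FPKM + 1) with no filter, 33 at an adjusted p below 0.01, 19 with a required log2 fold change above 0.5 (glmTreat) and 355 with the acinar covariate, which was added after seeing the data. It was 36 (without hCAST 2) to 356 (without hIAPP-hCAST 3) with 1 library left out, and 112 to 133 with RLE factors, no filter, no robust dispersions, or ribosomal-rich or acinar genes removed. The interaction count of 0 was 47 with DESeq2, 50 on log2(FPKM + 1), 11 on log2(FPKM + 0.1), 2 with no filter on FPKM and 0 to 5 with 1 library left out. For hIAPP minus WT the count of 1833 was 383 without the ribosomal-rich libraries, 12559 and 12009 on log2(FPKM + 1) and log2(FPKM + 0.1), where the median of all genes moved to 1.26 and 1.82, 587 at 0.01, 155 with glmTreat and 995 to 1414 with 1 library left out. The cause of these changes was not tested, except that fewer libraries or stricter thresholds enter some fits.

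Of 53 named genes that passed, 21 kept the call with each compared library left out, 32 lost it in at least 1 such fit and 0 changed sign in any alternative. Genes that did not pass and changed sign on the log2 scale were Fam173b (-0.23 to 0.12 with 1 library left out), Loxl1 (-0.31 to 0.10), Iapp (-0.044 to 0.028, 0.0043 with only the compared groups and 0.043 on log2(FPKM + 1), log2(FPKM + 0.1) and FPKM with no filter) and Sdc1 (-0.11 to 0.087, -0.00045 with DESeq2 and -0.00034 without the ribosomal-rich libraries). No paired analysis was possible because the libraries of the groups compared share no replicate number in the labels. With 3 libraries a group, changes under about the spread between libraries were not detectable.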
